A study of Homo sapiens with 6 samples.

Results

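The 37 genes of the human mitochondrial genome were followed through RNA-seq of METTL3 and METTL14 knockdown K562 cells. They were chosen as every row of the count table whose Ensembl identifier has a symbol starting with MT-, which gave 13 mRNAs, 2 rRNAs and 22 tRNAs among 61661 identifiers. K562 is an established line of chronic myeloid leukemia cells in blast phase, and the labels give all 6 libraries the genotype WT and name no drug. The shCTR cells carried a control short hairpin RNA, the shMETTL3 cells a hairpin against METTL3 and the shMETTL14 cells a hairpin against METTL14, with 2 libraries of each. The design text states that the knockdowns were compared to find altered pathways. The shCTR and shMETTL3 lines are described as stably transduced lines, so each group is a cell line and not a set of animals or donors. The labels do not say whether the libraries of a group came from separate cultures, and p-values therefore measure the spread between these libraries, which may be technical.

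Library totals ran from 19292574 to 20115304 counts. METTL3 was lower in shMETTL3 than in shCTR cells, at 52.5 and 46.7 CPM against 90.5 and 90.3 CPM (counts relative to library depth, scaled by TMM factors, which correct for library composition). METTL14 was lower in shMETTL14 than in shCTR cells, at 19.1 and 20.6 CPM against 33.2 and 34.2 CPM. All 9 K562 markers on an erythroleukemic list had a mean of at least 10 counts, and 5 of 12 markers of other cell types did.

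The mitochondrial genome is a circular molecule that is transcribed from both strands as long precursors. The tRNAs lie between most of the larger genes and are cut out, which releases the mRNAs and rRNAs, and most of the mRNAs then receive short poly(A) tails. Their products are core subunits of respiratory complexes I, III and IV and of ATP synthase (complex V), while the remaining subunits, and the proteins that transcribe, process and stabilize mitochondrial RNA, come from the nucleus. METTL3 and METTL14 form the methyltransferase that places m6A on RNAs made in the nucleus.

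The 3′ ends of the annotated mRNA genes that the comparisons turn on are shown first. The libraries were made from RNA captured on oligo(dT), which binds a poly(A) tail. Where the mature mRNAs end, and whether each carries a tail, was not measured here and can differ from the annotated end. Each line gives the last 30 bases of the annotated gene (GENCODE release 29, GRCh38, mitochondrial chromosome M), 5′ to 3′ on the gene's own strand. Capitals mark the last codon, or the bases left where the gene ends before the codon is whole.
MT-CYB (15858 to 15887, plus strand): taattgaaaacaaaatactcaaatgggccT
MT-ND1 (4233 to 4262, plus strand): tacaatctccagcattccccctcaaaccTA
MT-CO1 (7416 to 7445, plus strand): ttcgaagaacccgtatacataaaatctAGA
MT-ND5 (14119 to 14148, plus strand): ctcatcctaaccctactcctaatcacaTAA
MT-ND6 (14149 to 14178, minus strand): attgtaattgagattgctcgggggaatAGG
In 6 of the 13 mRNAs, MT-CYB and MT-ND1 among them, the stop codon is partial in the DNA and is completed by the poly(A) tail. The other 7 end in a whole codon. MT-ND6 is the mRNA of the opposite strand and abuts MT-ND5, whose last base is 14148 while that of MT-ND6 is 14149.

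Overlaps between genes are shown for the pairs that share an mRNA, since a read over shared bases cannot be given to 1 gene. Capitals mark the shared bases, and the small letters before them belong to the upstream gene alone.
MT-ATP8 into MT-ATP6 (8515 to 8572): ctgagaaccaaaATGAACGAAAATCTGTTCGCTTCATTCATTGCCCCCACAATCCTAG
MT-ND4L into MT-ND4 (10748 to 10766): aaacctactccaATGCTAA
The first overlap is 46 bases of the 207 of MT-ATP8 and the second is 7 bases of the 297 of MT-ND4L. How reads over shared bases were assigned is not given in the sources used here, and neither is whether counting used the strand, so the values of MT-ATP8, MT-ND4L and MT-ND6 are uncertain in that respect.

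The cytochrome c oxidase mRNAs were the most abundant per length. Over all 6 libraries, the mean level was 8488 CPM per kb for MT-CO3, 7785 CPM per kb for MT-CO2 and 7385 CPM per kb for MT-CO1, the catalytic subunit. MT-ND3 followed at 3723 CPM per kb, MT-ATP6 at 3541, MT-ND2 at 3183, MT-ND4 at 1949, MT-ND4L at 1723 and MT-ND1 at 1615 CPM per kb. The remaining 4 mRNAs were far lower, with MT-CYB at 65.03 CPM per kb, MT-ND6 at 59.9, MT-ND5 at 52.1 and MT-ATP8 at 36.8 CPM per kb. The mRNAs thus fell into 9 above 1000 CPM per kb and 4 under 100 CPM per kb, with a 24.8-fold gap between the lowest of the first and the highest of the second.

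**Figure D1:**
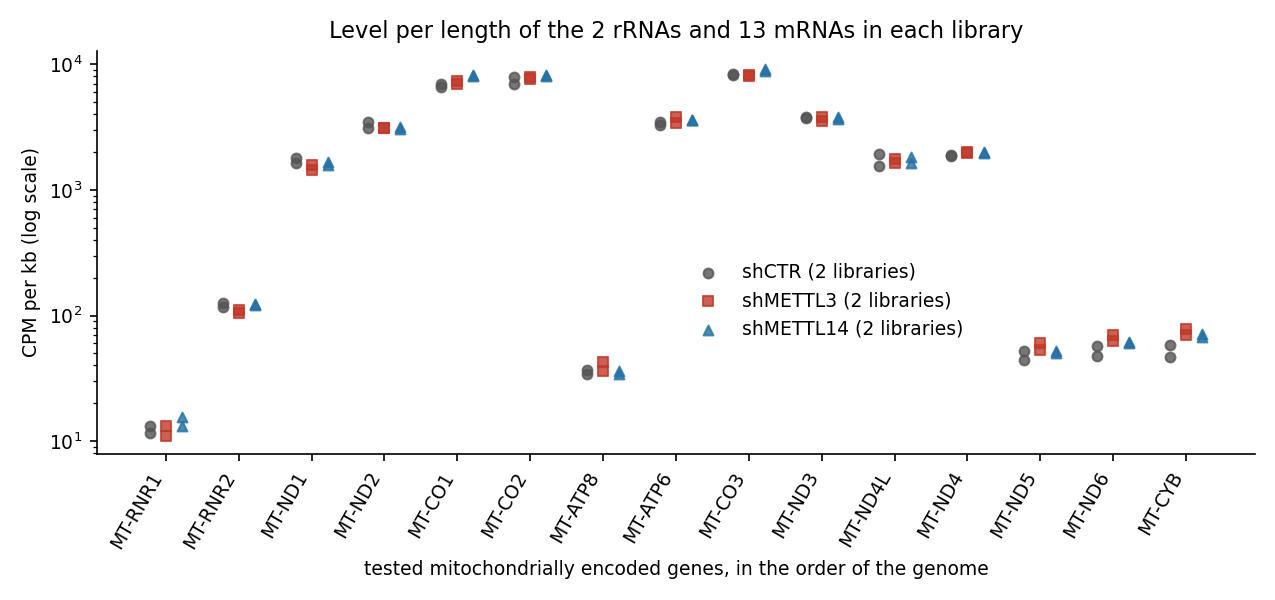
Level per length (CPM per kb, log axis) of the 2 rRNAs and 13 mRNAs in the 6 libraries, with genes in genome order and a point for each library. MT-ATP8, MT-ND5, MT-ND6 and MT-CYB lie below 100 CPM per kb in every library, and the other 9 mRNAs above 1000.

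MT-ND4 and MT-ND5, with only tRNA genes between them, were on different sides of that gap. Both are complex I subunits of the same strand, and MT-ND4 was 37.5-fold higher per length than MT-ND5. MT-ND4 was 29.98-fold higher than MT-CYB, the cytochrome b of complex III. The nuclear genome holds copies of mitochondrial DNA that can take reads, and the table has 404 rows for such copies, of which 290 were at 0 in every library and 5 had a mean of at least 10 counts. The best covered copies were MTND2P28 with 5110 to 6268 counts, MTATP6P1 with 4985 to 6124 and MTCO1P12 with 335 to 492. Exact matches to other GENCODE transcripts, searched after the counts were seen, covered 27.9% of the 100-base windows of MT-CO1 and 26.1% of those of MT-ND2, but 0% of those of MT-CYB, MT-ND5, MT-ND6 and MT-ATP8. Over 50-base windows, the low mRNAs did share some, at 17.9% for MT-ND6, 8.23% for MT-ATP8, 4.765% for MT-ND5 and 1.19% for MT-CYB. MT-ATP6 shared 46.7% of its 50-base and 11.9% of its 100-base windows. The levels of genes with shared windows, of which MT-CO1, MT-ATP6 and MT-ND2 had the most at 50 bases, are uncertain to the extent that their reads were split with copies.

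The rRNAs, which are the structural RNAs of the mitochondrial ribosome, were low in these oligo(dT)-captured libraries. MT-RNR1, the small subunit rRNA, had 218 and 239 counts in shCTR, 249 and 212 in shMETTL3 and 246 and 290 in shMETTL14. MT-RNR2, the large subunit rRNA, had 3596 and 3749 counts in shCTR, 3417 and 3261 in shMETTL3 and 3695 and 3786 in shMETTL14. Per length, MT-RNR2 reached 117 CPM per kb and MT-RNR1 12.9 CPM per kb, both below each of the 9 abundant mRNAs. MT-RNR2 was above each of the 4 lower mRNAs, and MT-RNR1 was below them.

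The tRNAs were nearly absent. Of the 22, 20 were at 0 counts in every library, which allows up to between 0.149 and 0.156 CPM per library (3 counts of the total, for counting error only). MT-TF, the phenylalanine tRNA, had 1 count in each of 2 libraries. MT-TP, the proline tRNA of the minus strand, had 10 and 7 counts in shCTR, 6 and 15 in shMETTL3 and 7 and 7 in shMETTL14; it and MT-TF are named because they were the tRNAs with any count. No tRNA passed the filter on low counts, and 15 of the 37 genes were tested.

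The mitochondrial mRNAs took a larger share of the counts in both knockdowns than in control cells. Their share was 3.34% ± 0.00920 in shCTR, 3.54% ± 0.0524 in shMETTL3 and 3.72% ± 0.0517 in shMETTL14 (SD, n = 2 each). For all 37 genes, shCTR had 3.37% and 3.36%, shMETTL3 3.52% and 3.59%, and shMETTL14 3.70% and 3.78%, so the groups did not overlap. With 2 libraries against 2, an exact permutation test cannot give a two-sided p below 0.333, and no test was run on the share.

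**Figure D2:**
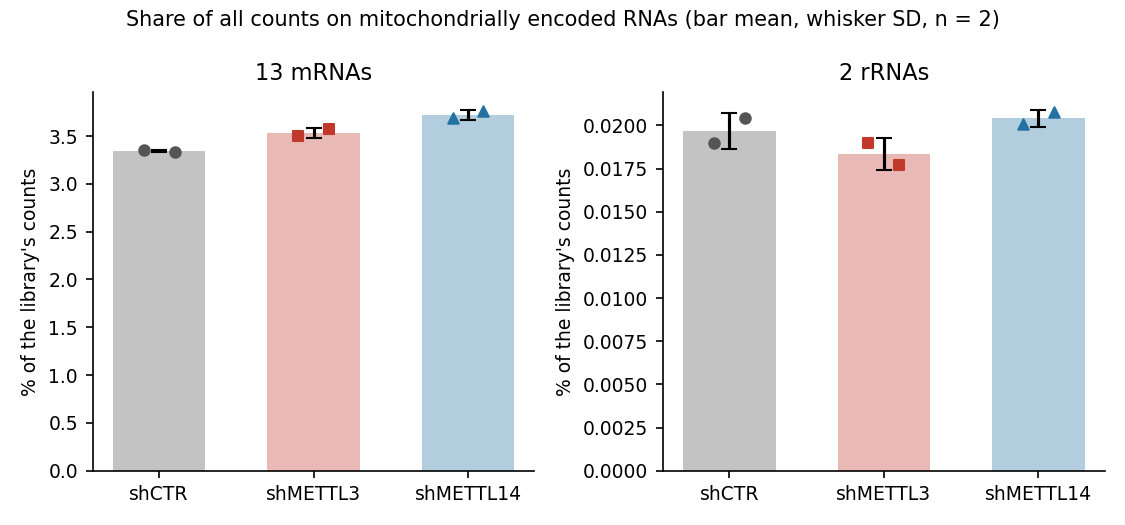
Share of each library's counts (%) on the 13 mitochondrial mRNAs (left) and the 2 rRNAs (right), with a point per library, bars for the mean and whiskers for the SD (n = 2). The mRNA share runs from 3.34% in shCTR to 3.54% in shMETTL3 and 3.72% in shMETTL14, while the rRNA groups lie between 0.0183% and 0.0204%.

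The size of this difference depended on scaling. The raw share in shMETTL3 was 1.06 times that of shCTR, and the summed TMM-scaled level was 1.02 times, at 34861 ± 427 against 34276 ± 31.8 CPM (SD, n = 2). In shMETTL14 the raw share was 1.11 times and the scaled level 1.09 times that of shCTR, at 37446 ± 583 CPM. More mitochondria per cell and more RNA per mitochondrion cannot be told apart in bulk RNA. Of 20 RNAs that mostly lack a poly(A) tail, 18 were in the table, 8 of them at 0 throughout, and their summed level was 807 and 848 CPM in shCTR, 954 and 932 in shMETTL3 and 912 and 952 CPM in shMETTL14. Most of that sum was the histone gene H1-2. The list as a whole did not follow its sum: of 7 tested members, 3 had a positive log2 fold change in shMETTL3 (median -0.10) and 2 in shMETTL14 (median -0.07). The part of poly(A) capture in the mitochondrial share was not tested.

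Within the mitochondrial counts, the complex IV mRNAs had a larger share and the complex I mRNAs a smaller one in shMETTL14 than in shCTR. The 3 complex IV mRNAs made up 64.2% and 64.7% of mitochondrial counts in shCTR, 65.9% and 64.8% in shMETTL3 and 67.3% and 67.5% in shMETTL14. The 7 complex I mRNAs made up 28.5% and 27.6% in shCTR, 26.6% and 27.1% in shMETTL3 and 25.3% and 25.2% in shMETTL14. In both classes the libraries of shCTR and shMETTL14 did not overlap. Within complex IV this held for MT-CO1 alone, at 31.3% and 29.8% in shCTR and 33.8% and 33.7% in shMETTL14. The shMETTL14 shares of MT-CO2 (14.78% and 14.84%) and MT-CO3 (18.72% and 18.98%) overlapped those of shCTR (14.02% and 15.76%, 18.87% and 19.07%). The scaled levels of the complex I mRNAs had a median log2 fold change of -0.005 in shMETTL14, with none called. Their smaller share therefore does not show a lower level.

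In shMETTL3 cells, 2 mitochondrial mRNAs were higher and 1 was lower than in shCTR cells, among the 15 tested. Calls rest on an adjusted p under 0.05 in the quasi-likelihood test of edgeR, with p-values adjusted by the Benjamini-Hochberg method over all 17686 genes tested, a rule that called 16.5% of all genes in this comparison. The median log2 fold change of the 15 was 0.06, and that of all genes tested was 0.00. Removing a smooth trend with gene length and GC content from each library gave 8 calls, all higher. That fit called 3472 of 16662 genes, 1608 higher and 1864 lower. Scaling by library size alone gave 4 calls, all higher. It moved the median log2 fold change of all genes to 0.06 and called 2158 higher and 858 lower.

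The 4 mRNAs under 100 CPM per kb had the largest log2 fold changes of the 15 in shMETTL3. They were at 0.50 for MT-CYB, 0.34 for MT-ND6, 0.23 for MT-ND5 and 0.15 for MT-ATP8, with MT-ATP6 next at 0.09. In shMETTL14 this order did not hold, with MT-CO1 at 0.27 and MT-ATP8 at -0.02. A relation to their low level was not tested. MT-CYB, the only complex III subunit of the mitochondrial genome, had the largest difference of the 15. It was at 53.4 and 65.9 CPM in shCTR and 88.4 and 80.5 CPM in shMETTL3, and both knockdown libraries were above both controls. The log2 fold change was 0.50 (SE 0.0844, edgeR adjusted p = 3.91e-04). It remained called in each of the 15 alternative settings, with log2 fold changes from 0.36 to 0.66 when a library was left out.

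MT-ND6, a complex I subunit and the only mRNA of its strand, was at 29.9 and 24.9 CPM in shCTR and 36.4 and 33.2 CPM in shMETTL3. The groups did not overlap, and the log2 fold change was 0.34 (SE 0.0931, edgeR adjusted p = 0.0151). The call was lost without shCTR replicate 2 (log2 fold change 0.22, adjusted p = 0.106 by edgeR) and without shMETTL3 replicate 1 (0.28, adjusted p = 0.160 by edgeR). MT-ND5, which abuts it on the other strand, was at 94.1 and 80.5 CPM in shCTR and 110 and 95.6 CPM in shMETTL3. Its log2 fold change of 0.23 (SE 0.0794) missed the threshold, with an edgeR adjusted p of 0.0517. MT-ND5 was called higher with library size alone, with the replicate number as a block and with the GC and length trend removed.

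MT-ND1, a core complex I subunit near the start of the mRNA series, was lower. It was at 1572 and 1718 CPM in shCTR and 1368 and 1510 CPM in shMETTL3, with a narrow gap between the groups. The log2 fold change was -0.19 (SE 0.0599, edgeR adjusted p = 0.0320). The call was lost without shCTR replicate 2 (-0.13), without shMETTL3 replicate 1 (-0.12) or without shMETTL3 replicate 2 (-0.26), and also with library size alone (-0.14) or with the GC and length trend removed (-0.11). MT-RNR2 was at 182 and 196 CPM in shCTR and 174 and 163 CPM in shMETTL3, a log2 fold change of -0.17 (SE 0.0634) that missed the threshold with an edgeR adjusted p of 0.0781.

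**Figure D3:**
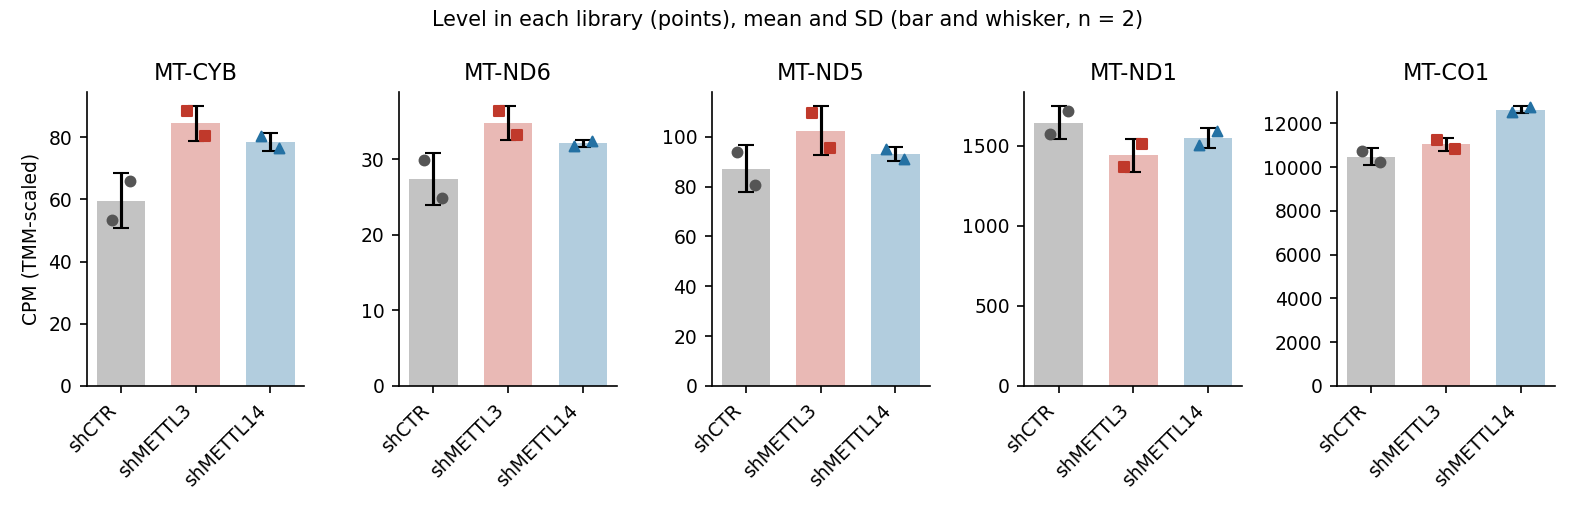
TMM-scaled level (CPM, axes from 0) of MT-CYB, MT-ND6, MT-ND5, MT-ND1 and MT-CO1 in each library, with points for libraries, bars for the mean and whiskers for the SD (n = 2). Both MT-CYB libraries of each knockdown lie above both shCTR libraries, and MT-CO1 is highest in shMETTL14 at 12508 and 12748 CPM.

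In shMETTL14 cells, 2 of the 15 tested genes were higher than in shCTR cells and none was lower, by the same edgeR rule, which called 6.69% of all genes in this comparison. Of the 15, 5 had an unadjusted p under 0.05 by edgeR, as did 3665 of all 17686 genes tested. DESeq2 called the same 2 genes. The median log2 fold change was 0.09, against 0.00 for all genes tested. Removing the GC and length trend gave 4 calls, all higher, where 1599 of 16662 genes were called. Scaling to the summed mitochondrial counts, an alternative added after the data were seen, also gave 4, with MT-CO1 and MT-CYB higher and MT-ND1 and MT-ND2 lower. It called 3139 of all 17686 genes tested, 359 higher and 2780 lower.

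MT-CO1 was at 10747 and 10222 CPM in shCTR and 12508 and 12748 CPM in shMETTL14. The groups did not overlap, and the log2 fold change was 0.27 (SE 0.0463, edgeR adjusted p = 0.00100). This call held in each of the 15 alternative settings. The other complex IV mRNAs were at log2 fold changes of 0.12 each (SE 0.0547 for MT-CO2 and 0.0464 for MT-CO3) and did not pass the threshold, with edgeR adjusted p of 0.217 and 0.142.

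MT-CYB was also higher in shMETTL14 cells, at 80.6 and 76.5 CPM against the same controls. Its log2 fold change was 0.40 (SE 0.0847, edgeR adjusted p = 0.00651). The call was lost without shCTR replicate 1 (0.25, adjusted p = 0.0654 by edgeR), the control library with the lowest MT-CYB level, and without shMETTL14 replicate 1 (0.36, adjusted p = 0.139 by edgeR). Both knockdowns were compared with the same shCTR libraries, so the differences of MT-CYB in the 2 knockdowns are not independent. MT-ND6 was at 31.8 and 32.4 CPM in shMETTL14, a log2 fold change of 0.23 (SE 0.0938) with an edgeR adjusted p of 0.162. It was called higher with the GC and length trend removed.

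**Figure D4:**
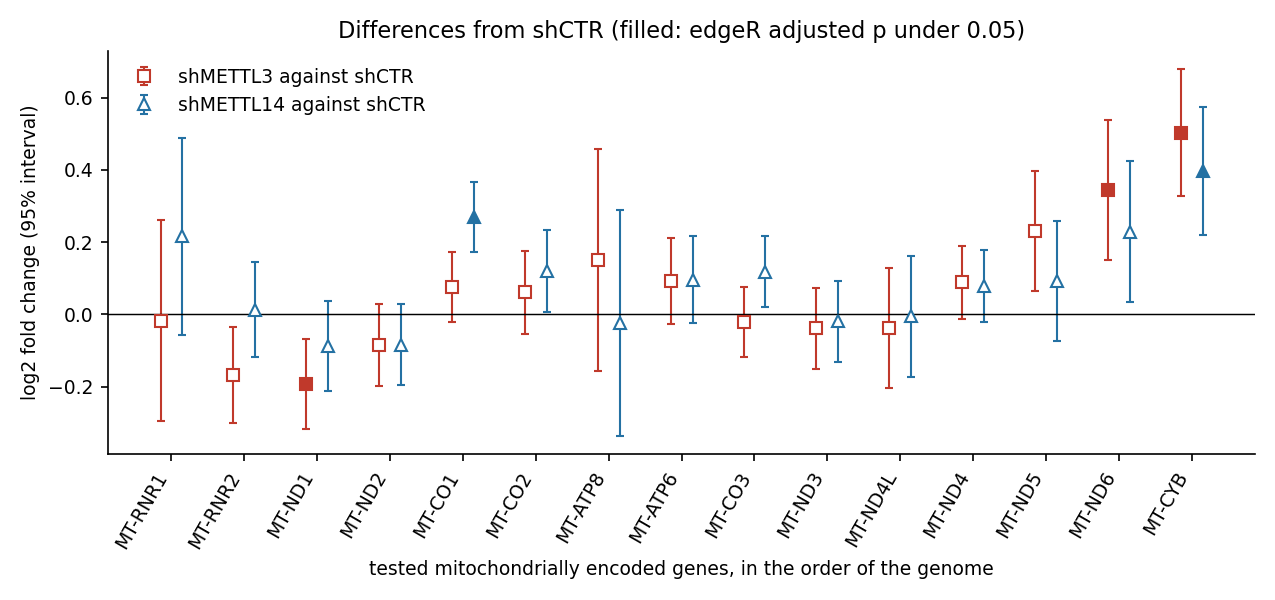
Log2 fold change against shCTR with its 95% interval for the 15 tested genes in genome order, in shMETTL3 (squares) and shMETTL14 (triangles), filled where the edgeR adjusted p is under 0.05. MT-CYB is filled in both, MT-ND6 and MT-ND1 in shMETTL3 and MT-CO1 in shMETTL14.

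The knockdowns were also compared directly. MT-CO1 was the only one of the 15 called, by a rule that called 12.1% of all genes. It was lower in shMETTL3 (11263 and 10834 CPM) than in shMETTL14, with a log2 fold change of -0.19 (SE 0.0463, edgeR adjusted p = 0.00828). This call was lost without shMETTL3 replicate 1 (-0.22, adjusted p = 0.0755 by edgeR), without shMETTL3 replicate 2 (-0.16, adjusted p = 0.219 by edgeR) and under scaling to the summed mitochondrial counts (-0.09, adjusted p = 0.196 by edgeR). MT-CO3 (-0.14, SE 0.0464, edgeR adjusted p = 0.0544) and MT-RNR2 (-0.18, SE 0.0633, edgeR adjusted p = 0.0715) narrowly missed the threshold, and their groups did not overlap. Both were called lower in shMETTL3 with only the compared groups and with the replicate number as a block. MT-CYB had a log2 fold change of 0.11 between the knockdowns, with a 95% interval from -0.07 to 0.28. MT-ND6 had one of 0.11, with an interval from -0.08 to 0.31. The calls of MT-ND6 and MT-ND1 in shMETTL3 alone are therefore not shown to be particular to that knockdown.

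None of the remaining mRNAs passed the threshold in either knockdown. MT-ND2, MT-ND3, MT-ND4L and MT-ND4 of complex I had log2 fold changes from -0.08 to 0.09 in shMETTL3 and from -0.08 to 0.08 in shMETTL14. MT-ATP6, the membrane subunit of ATP synthase, had log2 fold changes of 0.09 and 0.10. MT-ATP8, its small partner, had 135 to 174 counts per library and log2 fold changes of 0.15 (SE 0.147) and -0.02 (SE 0.150), so that its interval in shMETTL3 ran from -0.16 to 0.46. In shMETTL3, MT-CO1, MT-CO2 and MT-CO3 were at 0.08, 0.06 and -0.02, none called. With the GC and length trend removed, MT-ATP6, MT-ND3 and MT-ND4 were called higher in shMETTL3. So were MT-CO1, MT-CO2, MT-ND5, MT-ND6 and MT-CYB. MT-CO1 was called higher in both knockdowns under that setting. Of the best covered nuclear copies, MTND2P28 was called higher in shMETTL3 (0.19, SE 0.0581, edgeR adjusted p = 0.0272) and was at 0.11 in shMETTL14, not called. MTATP6P1 (0.02 and 0.10) was not called in either knockdown. Neither was MTCO1P12 (0.29 and 0.36, edgeR adjusted p = 0.0667 and 0.0514).

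The letters GGACT, a common core of m6A sites, were searched on the strand of each transcript after the counts were seen. They were present in 7 of the 13 mRNAs, with 3 matches each in MT-ND4 and MT-ND5 and 1 each in MT-CO1, MT-CO2, MT-ATP6, MT-CO3 and MT-CYB. MT-ND1 and MT-ND6 had none. Among other genes of a length within 10% of theirs, 67.9% of those like MT-CYB and 62.3% of those like MT-ND1 held the letters. A match describes the sequence and does not show a methylated site.

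The nuclear genes that maintain and express the mitochondrial genome were taken from 6 lists with 80 genes, all tested. In shMETTL3 cells 3 were higher and 12 lower, with a median log2 fold change of -0.04, so 15 of 80 were called where 16.5% of all genes were. In shMETTL14 cells none was higher and 3 were lower, with a median of -0.07, where 6.69% of all genes were called. TFAM, which packages and helps transcribe mitochondrial DNA, had log2 fold changes of -0.05 and -0.03, and POLRMT, the mitochondrial RNA polymerase, 0.06 and 0.03, none of them past the threshold. MTERF2, a transcription termination factor family member, was lower in shMETTL3 cells (-0.47, SE 0.0864, edgeR adjusted p = 8.61e-04).

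The list of RNA stability and decay factors had most of its members lower in shMETTL3 cells. Of its 8 genes, 5 were lower and 1 was higher, where 16.5% of all genes were called in either direction. DESeq2 called 4 lower and 1 higher. The median log2 fold change by edgeR was -0.24 against 0.00 for all genes. LRPPRC and SLIRP, whose complex protects mitochondrial mRNAs, were lower by -0.23 (SE 0.0591, edgeR adjusted p = 0.0111) and -0.26 (SE 0.0744, edgeR adjusted p = 0.0212). MTPAP, the mitochondrial poly(A) polymerase, was at 50.4 and 48.8 CPM in shCTR and 40.4 and 41.4 CPM in shMETTL3 (log2 fold change -0.28). PNPT1, a mitochondrial exoribonuclease, was lower (-0.27), as was REXO2, an oligoribonuclease (-0.25), named after its value was seen. PDE12, which removes poly(A) from mitochondrial RNA, was the member that was higher (0.33, SE 0.0816, edgeR adjusted p = 0.00862). In shMETTL14 cells 1 of the 8 was called, where 6.69% of all genes were. This gene was PNPT1 (-0.24, SE 0.0624, edgeR adjusted p = 0.0248), and the list median was -0.14.

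Among the other lists, FEN1, a flap endonuclease, was higher (0.25) and POLG2, the accessory subunit of the mitochondrial DNA polymerase, was lower (-0.28) in shMETTL3 cells. MRM1, an rRNA methyltransferase, was higher (0.31) and METTL15, another, was lower (-0.25). CDK5RAP1, which modifies tRNAs, was lower (-0.23). DNA2, a nuclease and helicase, was lower in shMETTL14 cells (-0.24, edgeR adjusted p = 0.0489). None of the 13 RNA processing genes was called in either knockdown by edgeR or by DESeq2. In each, 2 had an unadjusted p under 0.05 by edgeR. Over all 17686 genes tested, 5291 did so in shMETTL3 and 3665 in shMETTL14. PRORP, the nuclease that cuts the 5′ ends of mitochondrial tRNAs, had a lower level with METTL3 knockdown than with METTL14 knockdown (-0.46, SE 0.142, edgeR adjusted p = 0.0381). DESeq2 did not call SLIRP (adjusted p = 0.0665 by DESeq2), MRM1 (0.0822), METTL15 (0.0920) or CDK5RAP1 (0.0722) in shMETTL3, DNA2 in shMETTL14 (0.119) or PRORP between the knockdowns (0.174).

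The nuclear subunits of the respiratory complexes were the counterpart of the mitochondrial ones, and those that were called in shMETTL3 cells were all lower than in shCTR cells. Of 80 nuclear subunit genes, none was higher and 27 were lower, with a median log2 fold change of -0.14, where 16.5% of all genes were called in either direction, while the 13 mitochondrial mRNAs had a median of 0.08 with 2 higher and 1 lower. Complex V had 10 of 18 nuclear genes lower, led by ATP5PO (-0.38, SE 0.0877, edgeR adjusted p = 0.00595), and its mitochondrial mRNAs had log2 fold changes of 0.09 and 0.15. Complex I had 10 of 37 lower, among them NDUFA10 (-0.36). Complex IV had 4 of 12 lower, led by COX7B (-0.28), and complex III 2 of 9, led by UQCRH (-0.22). Complex II had 1 of 4 lower, SDHD. In shMETTL14 cells, 3 of the 80 nuclear genes were lower (NDUFC1, UQCRC2 and ATP5MJ), with a median of -0.04, where 6.69% of all genes were called. These nuclear counts and medians were not recomputed with the GC and length trend removed, a setting that changed the mitochondrial calls.

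**Figure D5:**
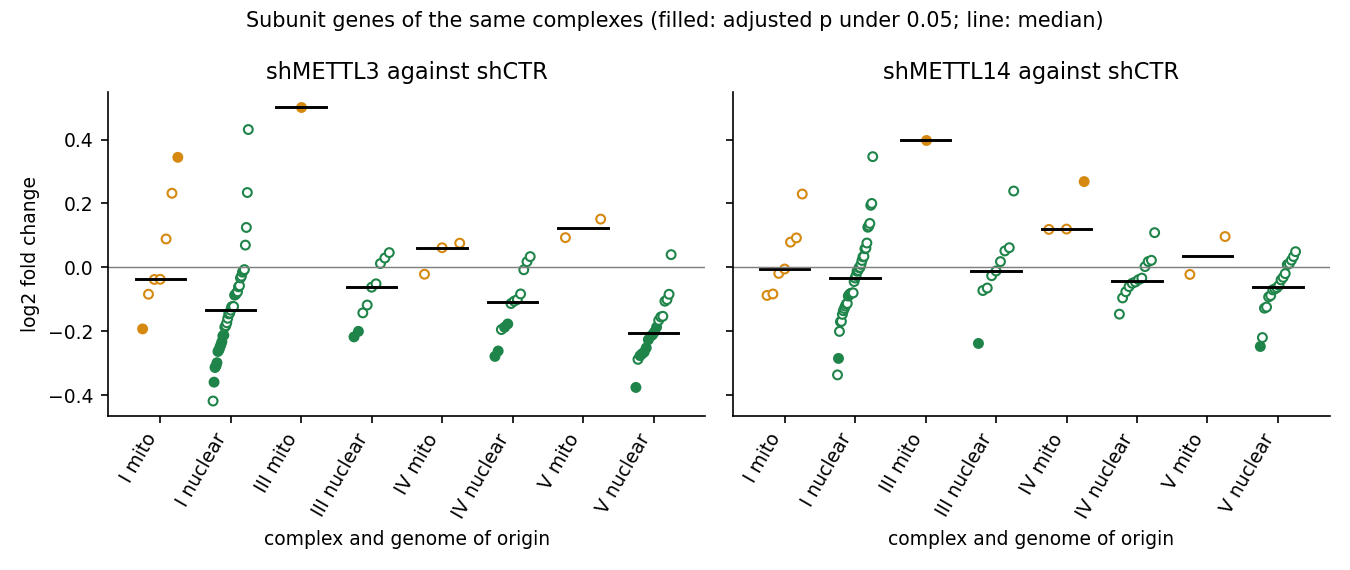
Log2 fold change against shCTR of the mitochondrial (orange) and nuclear (green) subunit genes of complexes I, III, IV and V, filled where the adjusted p is under 0.05, with a line at the median. In shMETTL3 the nuclear medians lie below 0 in each complex, at -0.13, -0.06, -0.11 and -0.21.

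The summed mitochondrial level relative to the summed level of the 80 nuclear subunit genes gives the same comparison within a library, free of its scaling factor. It is not free of trends with gene length and GC content, which were not removed here. The ratio was 2.78 and 2.72 in shCTR, 3.07 and 3.11 in shMETTL3 and 3.09 and 3.12 in shMETTL14. Both knockdowns were above both controls, and they lay close to each other. In shMETTL3 the nuclear sum was 0.906 times that of shCTR and the mitochondrial sum 1.02 times, whereas in shMETTL14 they were 0.968 and 1.09 times. No p is given, for the reason stated for the share.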

How the data were processed

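Oligo(dT)-captured RNA of 6 K562 libraries (2 each of shCTR, shMETTL3 and shMETTL14, grouped by their titles) was sequenced, and the file the authors deposited holds raw counts per gene, without normalization. The submitters' processing notes name HTSeq 0.6.1 and hg38. The aligner and the strand and overlap settings are not given in the sources used here. Of the identifiers, 56558 were named from a gene name table and 497 through GENCODE release 29, and all 37 mitochondrial genes matched. Lengths, GC content, positions and sequences came from GENCODE release 29 (GRCh38), and levels per kb use the longest transcript.

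Tests were run with edgeR 4.0.16 (R 4.3.3). After the filter for low expression (minimum count 10) 17686 genes remained. TMM factors lay between 0.980 and 1.021, and 1 fit over the 6 libraries gave quasi-likelihood tests of the 3 pairs of groups, with Benjamini-Hochberg adjustment over all genes tested and a threshold of 0.05. Alternatives were DESeq2 1.42.0, its size factors, library size alone, scaling without the mitochondrial genes, no filter, only the compared groups, the replicate number as a block, a GC and length trend removed (mgcv 1.9.3), each library left out and, added after seeing the data, scaling to the summed mitochondrial counts. The steps were tested on simulated data.

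The members and lists were chosen with earlier results of these data known. All mRNAs and rRNAs are named, as are the 3 best covered nuclear copies. From each nuclear list, the called genes with the largest rise and fall against shCTR are named, plus TFAM, POLRMT, LRPPRC and SLIRP. Between the knockdowns, only PRORP is named from these lists. Library totals of 19292574 to 20115304 counts set the precision, and floors cover counting error only.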

Additional observations from a re-analysis of the deposited data

Results flagged for a closer look

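MT-CO1 was the only mitochondrial gene called between the knockdowns by the direct test in the shared fit. Its log2 fold change in shMETTL3 relative to shMETTL14 was -0.19 (edgeR adjusted p = 0.00828), with both shMETTL3 libraries below both shMETTL14 libraries. Leaving out either shMETTL3 library, or scaling to the summed mitochondrial counts, ended this call.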

How the results depend on the processing

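For each comparison, the log2 fold changes of the 15 tested genes were recomputed under 15 alternatives, 225 values. In shMETTL3 against shCTR, 190 kept their direction and side of the threshold, 7 lost and 13 gained a call, and 15 changed sign; in shMETTL14 against shCTR these were 195, 2, 8 and 20, and in shMETTL3 against shMETTL14 188, 3, 11 and 23. Except for MT-ND3 in shMETTL3 with the GC and length trend removed (0.14, adjusted p = 0.0431 by edgeR), no value that changed sign was past the threshold in either fit. The cause was not tested.

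With the GC and length trend removed, 8 genes were called in shMETTL3, 4 in shMETTL14 and 2 between the knockdowns. Over all 16662 genes tested there, 3472, 1599 and 3042 were called. Sign changes there were, in shMETTL3, MT-RNR1 0.095, MT-ND2 0.049, MT-CO3 0.085, MT-ND3 0.14 and MT-ND4L 0.12, in shMETTL14, MT-ATP8 0.091, MT-ND3 0.055 and MT-ND4L 0.069, and between the knockdowns, MT-ND2 0.090, MT-CO2 0.039, MT-ATP6 0.11, MT-ND3 0.089 and MT-ND4L 0.050. With library size alone they were, in shMETTL3, MT-RNR1 0.038, MT-CO3 0.034, MT-ND3 0.017 and MT-ND4L 0.018, in shMETTL14, MT-ATP8 0.0033, MT-ND3 0.0067 and MT-ND4L 0.020, and between the knockdowns, MT-ND2 0.029, MT-ATP6 0.026 and MT-ND3 0.011. Scaling to the summed mitochondrial counts called 4 genes in shMETTL14 and 0 between the knockdowns, and shifted the median of all genes by -0.13 and 0.10. Sign changes under it were, in shMETTL14, MT-RNR2 -0.11, MT-CO2 -0.0079, MT-ATP6 -0.031, MT-CO3 -0.0090, MT-ND4 -0.049 and MT-ND5 -0.035, and between the knockdowns, MT-ND2 0.10, MT-CO2 0.045, MT-ATP6 0.099, MT-ND3 0.084 and MT-ND4L 0.070. With only the compared groups, MT-ND2 was at 0.0021 between the knockdowns and 3 genes were called, where 2905 of 17345 genes were. With no filter, 2 were called, where 1631 of 37080 genes were.

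With each library left out, calls ran from 1 to 5 in shMETTL3, from 1 to 4 in shMETTL14 and from 0 to 3 between the knockdowns. The ends were reached without shMETTL3 replicate 1 (1) and shCTR replicate 1 (5), without shMETTL14 replicate 1 (1) and shCTR replicate 2 (4), and without either shMETTL3 library (0) and either shCTR library (3). Log2 fold changes that crossed 0 ran, in shMETTL3, from -0.15 to 0.11 for MT-RNR1, -0.022 to 0.14 for MT-CO2, -0.091 to 0.016 for MT-ND3 and -0.18 to 0.12 for MT-ND4L. In shMETTL14 they ran from -0.040 to 0.065 for MT-RNR2, -0.084 to 0.042 for MT-ATP8, -0.041 to 0.0017 for MT-ND3, -0.15 to 0.15 for MT-ND4L and -0.017 to 0.21 for MT-ND5. Between the knockdowns they ran from -0.021 to 0.019 for MT-ND2, -0.087 to 0.082 for MT-ATP6, -0.071 to 0.037 for MT-ND3, -0.12 to 0.056 for MT-ND4L and -0.00079 to 0.022 for MT-ND4.

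With the replicate number as a block, 4, 3 and 3 genes were called in the 3 comparisons. Over all genes the block called 3264, 1459 and 2478. The deviations of same-numbered libraries had correlations of 0.06, 0.01 and -0.02. The labels do not say whether same-numbered libraries were handled together. DESeq2 called 1 in place of 3 nuclear expression genes in shMETTL14, 0 in place of 2 between the knockdowns and 9 in place of 16 nuclear subunit genes between the knockdowns. Against Ensembl genes alone, the mRNA share in shCTR was 3.37%. Over all genes, DESeq2 called 1881, 763 and 1327 in place of 2912, 1184 and 2148, no filter called 766 in shMETTL14, and scaling to the mitochondrial counts called 3139 there, 359 higher and 2780 lower in place of 607 and 577. Library size alone called 2158 higher and 858 lower in shMETTL3 in place of 1544 and 1368. With a library left out, calls over all genes ran from 1102 to 3569, from 341 to 1913 and from 942 to 2953. The tested genes with the fewest counts, MT-ATP8 and MT-RNR1, had the largest SE, and the tRNAs were too low to test; what kept them low was not tested.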
